A study of Mus musculus with 46 samples.

Results

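Stromal cells of the kidney were compared between mice whose unilateral ureteric obstruction had been reversed (rUUO) and mice after sham surgery, to describe which transcripts still differed 14 days after relief of the obstruction. The comparison rests on 8 samples of PDGFRB+ sorted cells, 4 from rUUO and 4 from sham kidneys, out of 44 sorted samples with usable values in the series, and the labels define both groups. The mice were wild-type C57BL/6 males aged 8 to 12 weeks and carried no transgene. For rUUO the ureter was first obstructed and later reimplanted. Another 4 PDGFRB+ samples came from kidneys with standing obstruction (UUO), for which the labels give no day whereas the study's methods give day 2 and day 7. The series' design gives 4 mice a group, each kidney being sorted by FACS into 4 populations.

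PDGFRB, the beta receptor for platelet-derived growth factor, marks the mesenchymal cells of the kidney, which are interstitial fibroblasts, pericytes, vascular smooth muscle cells, the mesangial cells of the glomerulus and the renin cells of the afferent arteriole. After injury such cells lay down collagen and other matrix, and some of them gain contractile proteins as myofibroblasts. Relief of an obstructed ureter allows part of the tubular and interstitial damage to resolve, and which stromal programmes settle is a question the sham comparison addresses.

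Transcript levels are given as FPKM (fragments mapped to a gene, per unit of its transcript length and of the sample's mapped total), so that levels can be compared between genes. Values of single samples are listed in the order of replicates 1, 2, 3 and 4 for sham and 1, 2, 4 and 6 for rUUO. Changes are differences in mean log2(FPKM + 1) between groups of 4 with their standard error (SE), tested with limma over 14033 genes with Benjamini-Hochberg adjustment, and a gene is said to have risen or fallen where the adjusted p was under 0.05. The scale understates the change of genes near 0. Most genes are named by a rule on the size of their change, and Col3a1, Col11a1, Col4a3, Col4a4, Col4a5, Ctgf, Cyr61, Sparc, Mgp, Plau, Adamts1, Fap, Cd34, Acta2, Myh11, Tgfb1, Eng, Gli1, C3, Isg15, Ifit1 and Cdkn1a were singled out after their values were seen.

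Pdgfrb, the gene of the sort and therefore no finding, was present in every sample, at 202, 233, 258 and 157 FPKM in sham and 139.8, 129.9, 126 and 118 FPKM in rUUO, against a mean of 4.47 FPKM in CD31+ endothelial cells of sham kidneys. Dcn and Col1a2, which encode decorin and a chain of type I collagen, were likewise high in stromal samples and at means of 11.5 and 9.69 FPKM in sham endothelial cells. Of leukocyte markers, Adgre1 (F4/80) lay near 0, at 0.77 to 0.88 FPKM in sham and 0.57 to 1.31 FPKM in rUUO, as did Ptprc (CD45), at 0.69 to 0.83 and 0.73 to 2.06 FPKM. Other leukocyte markers were not near 0. Macrophage markers summed to 175 to 189 FPKM in sham and 110 to 186 FPKM in rUUO. Genes of MHC class II summed to 196 to 228 and 185 to 301 FPKM.

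The 2 groups were not alike in every technical respect. Mitochondrial genes took 34.0 to 45.8% of the FPKM sum in sham samples and 20.2 to 25.9% in rUUO samples, with no overlap (two-sided exact permutation test, p = 0.0286, which is the lowest value 4 against 4 can give). Relative depth, estimated from the smallest steps between FPKM values, was 0.949 to 1.15 in sham and 0.572 to 1.02 in rUUO, and total read counts are not known. Sham replicate 3 stood apart from the other sham samples, with the lowest Ren1, at 19.4 against 128 to 218 FPKM, and the highest Col1a2, at 426 against 123 to 188 FPKM. Pearson's r between samples of a group over genes was 0.897 to 0.937 for sham and 0.892 to 0.918 for rUUO.

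Of the 14033 genes, 2407 (17.2%) differed between rUUO and sham, 1626 (11.6%) being higher and 781 (5.57%) lower in rUUO. Because FPKM is relative to all mapped fragments, mitochondrial ones included, the fit was repeated after rescaling each sample without mitochondrial genes. Then 2037 genes (14.5%) differed, 1047 (7.47%) higher and 990 (7.06%) lower, and 1811 of them were among the 2407. The median change over all genes was 0.15 as deposited and −0.05 after rescaling. Accordingly the share of changed genes that were higher was 67.6% as deposited and 51.4% after rescaling and 51.9% after quantile normalization, so that the excess of rises was not present on those scales. No named gene that passed changed its direction on any scale tried. Without sham replicate 3, 2105 genes differed. The plot of change against p over all genes shows the named genes at both edges.

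The largest rise was that of Timp1. Timp1, an inhibitor of matrix metalloproteinases (ENSMUSG00000001131.11, GRCm38 chromosome X, 20870166 to 20874735), was at 6.21, 5.25, 18 and 9.64 FPKM in sham and 406, 236, 419.7 and 284 FPKM in rUUO samples. The lowest rUUO sample was thus far above the highest sham sample, and the mean was 34.4-fold higher (log2 change 5.07 ± 0.47 SE, adjusted p = 2.68e-06). Nkd2, an inhibitor of Wnt signalling on chromosome 13, 73818534 to 73847631, lay at 3.45, 1.49, 1.78 and 2.66 FPKM in sham and at 63.1, 63.4, 75 and 95.9 FPKM in rUUO (log2 change 4.51 ± 0.48 SE, adjusted p = 9.4e-06). Ltbp2, a latent TGF-beta binding protein of elastic fibres on chromosome 12, 84783212 to 84876532, rose from 2.38, 4.47, 8.88 and 2.59 FPKM to 104, 64, 103 and 81 FPKM (log2 change 4.11 ± 0.33 SE, adjusted p = 8.7e-07).

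Slc7a2 and Enpp1 differed little among rUUO samples. Slc7a2, a transporter of cationic amino acids, was at 5.27, 7.55, 7.63 and 7.21 FPKM in sham and 130.3, 129.5, 134 and 125 FPKM in rUUO (log2 change 4.06 ± 0.23 SE, adjusted p = 6.2e-08). Enpp1, the ectoenzyme that makes pyrophosphate from extracellular ATP, was at 9.43, 11.3, 8.69 and 9.68 FPKM against 130.5, 120.2, 141 and 139.6 FPKM (log2 change 3.64 ± 0.24 SE, adjusted p = 1.15e-07). Neither gene's groups came near each other. Il33, an alarmin cytokine of the interleukin-1 family, rose from 7.13, 6.51, 9.83 and 10.9 to 143, 89.2, 86 and 109.9 FPKM (log2 change 3.49 ± 0.20 SE, adjusted p = 6.2e-08), and the surface glycoprotein Thy1, a marker of fibroblasts, from 7.61, 13.5, 22.7 and 5.48 to 237, 89.3, 193 and 129 FPKM (log2 change 3.70 ± 0.39 SE, adjusted p = 9.87e-06).

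Other members of the 15 largest rises started close to 0. Olr1, a receptor for oxidised low-density lipoprotein, had 0.09, 0.22, 1.15 and 1.35 FPKM in sham and 25.2, 18.7, 24.2 and 27.3 FPKM in rUUO. Fbn2, a fibrillin of microfibrils, had 0.38, 0.51, 2.83 and 0.11 and 15.3, 18.6, 21.5 and 17.2 FPKM. In both genes the highest sham sample was below the lowest rUUO sample. Sham replicate 3 held the highest sham level of Fbn2, as of many matrix genes. The stromelysin Mmp3, the phospholipase Pla1a, Scube1, Lgi2 and the adhesion receptor Adgra1 were also among them, with changes of 3.57, 3.49, 3.50, 3.46 and 3.63.

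**Figure D1:**
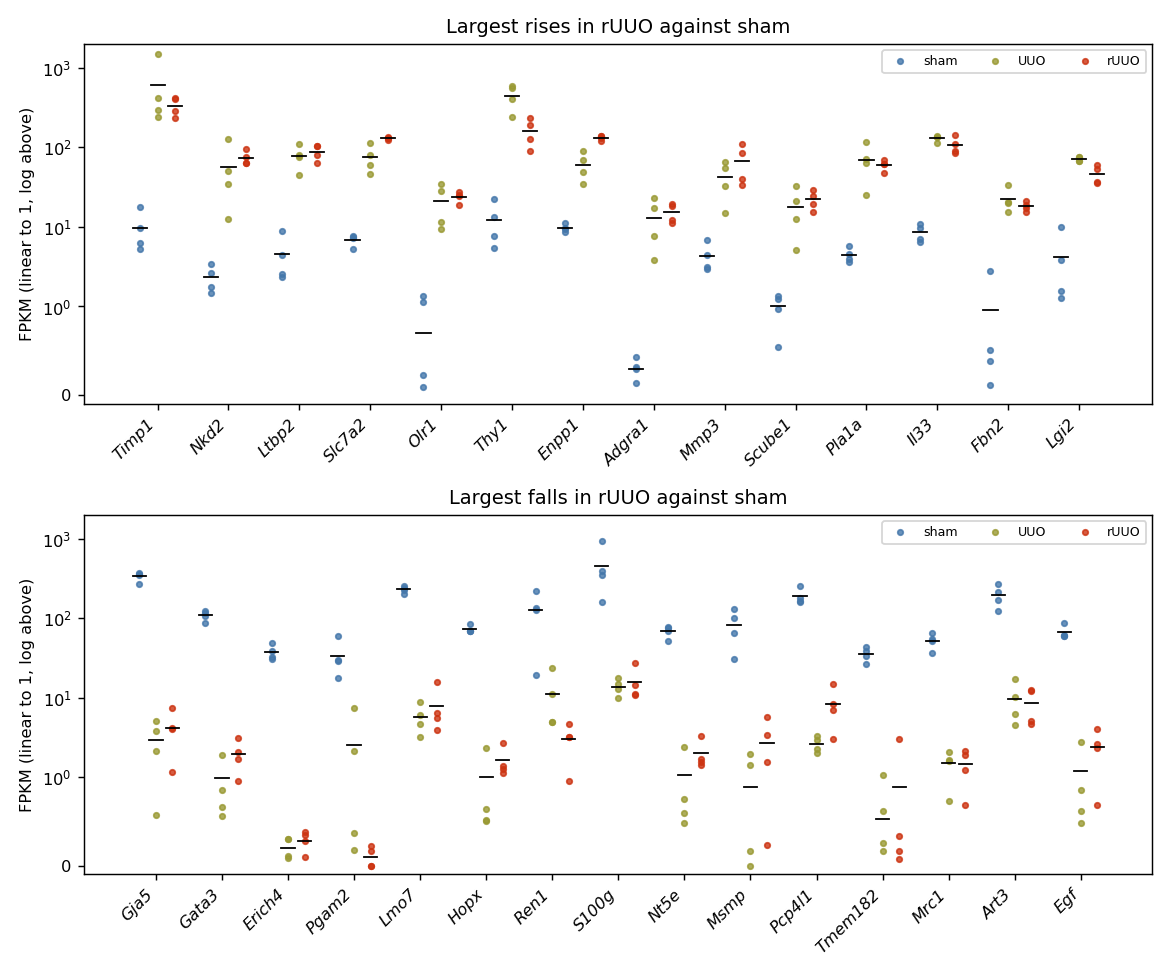
FPKM of 14 of the 15 largest rises (upper panel) and the 15 largest falls (lower panel) in each stromal sample (points, 4 a group) of sham, UUO and rUUO, with group means as bars; the y axis is linear up to 1 and logarithmic above. That rUUO and sham points do not overlap was required of these genes (23.9% of all genes tested met it), while rUUO and UUO points lie close together for most.

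The largest fall was that of Gja5. Gja5, which encodes the gap-junction protein connexin 40 of renin cells, the mesangium and arterial endothelium (ENSMUSG00000057123.14, GRCm38 chromosome 3, 96904693 to 97077416), was at 356, 368, 352 and 266 FPKM in sham and 7.44, 4.19, 4.04 and 1.16 FPKM in rUUO, a level 79.8-fold lower on average (log2 change −6.16 ± 0.42 SE, adjusted p = 1.42e-07). Gata3, a transcription factor of mesangial cells on chromosome 2, 9857078 to 9890034, was at 124, 115, 107 and 86.5 FPKM in sham and at 0.96, 3.12, 1.7 and 2.1 FPKM in rUUO (log2 change −5.24 ± 0.29 SE, adjusted p = 6.2e-08). Hopx, a homeodomain protein that does not bind DNA, lay at 83.7, 68.1, 68.4 and 69.2 FPKM against 1.4, 2.7, 1.28 and 1.13 FPKM (log2 change −4.83 ± 0.31 SE, adjusted p = 8.79e-08). For each of these genes every rUUO sample was far below the lowest sham sample.

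Ren1, which encodes renin, the protease that starts the angiotensin cascade (GRCm38 chromosome 1, 133350510 to 133360325), was at 218, 135, 19.4 and 128 FPKM in sham and 4.69, 3.24, 0.96 and 3.23 FPKM in rUUO (log2 change −4.65 ± 0.63 SE, adjusted p = 8.61e-05). The sham levels were uneven because of replicate 3, but even that sample was above all rUUO samples. Lmo7, a LIM-domain protein of cell junctions, fell from 255, 227, 242 and 199 to 15.8, 5.54, 6.44 and 3.94 FPKM (log2 change −4.86 ± 0.33 SE, adjusted p = 1.51e-07). Nt5e, the ectonucleotidase CD73 that makes adenosine and is carried by cortical fibroblasts, fell from 76.8, 69.8, 75.6 and 51.1 to 1.7, 1.44, 3.26 and 1.56 FPKM (log2 change −4.56 ± 0.31 SE, adjusted p = 1.54e-07). In bulk samples such as these, fewer cells of a type and less RNA per cell cannot be told apart.

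Of the other large falls, S100g (calbindin-D9k) and Egf (epidermal growth factor) are transcripts of the distal tubule, and both are described with the tubule markers below. Mrc1, the mannose receptor, fell from 54, 52.2, 64.6 and 36 to 1.23, 2.11, 0.68 and 1.9 FPKM (log2 change −4.42 ± 0.30 SE, adjusted p = 1.48e-07) although the macrophage marker Adgre1 was near 0 in both groups. Erich4 and Pgam2, a muscle form of phosphoglycerate mutase, were at 0.28, 0.35, 0.38 and 0.1 FPKM and at 0.16, 0, 0 and 0.22 FPKM in rUUO, after 30.7 to 48.2 and 17.6 to 59.4 FPKM in sham. Pcp4l1, Art3, Msmp and Tmem182 completed the 15, with changes of −4.50, −4.41, −4.55 and −4.48.

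Collagen genes stayed high as a group. Of 7 fibrillar collagen genes tested, 6 had risen and none fallen, with a median change of 2.17 against 0.15 over all genes. Col1a2 was at 129, 188, 426 and 123 FPKM in sham and 1244, 1685, 1243 and 1071 FPKM in rUUO, so that even sham replicate 3 was well below the lowest rUUO sample (log2 change 2.77 ± 0.30 SE, adjusted p = 1.31e-05). Col1a1, the partner chain of type I collagen on chromosome 11, 94936224 to 94953042, was at 106, 139.7, 354 and 97 and 961, 1253, 962 and 809 FPKM (log2 change 2.70 ± 0.33 SE, adjusted p = 3.13e-05). Col3a1, the main chain of type III collagen, was at 296, 413, 793 and 211 and 1635, 2328, 1785 and 1236 FPKM (log2 change 2.17 ± 0.32 SE, adjusted p = 0.000196). Col11a1, with a change of 1.33, did not pass the test. Without sham replicate 3 the count was again 6 of 7.

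These collagens stood between sham and UUO. Col1a1 had a mean of 174 ± 121 FPKM in sham, 2513 ± 762 in UUO and 996 ± 186 in rUUO (SD, n = 4 each). Against UUO, 6 of the 7 fibrillar collagens were lower in rUUO, beside 1.22% of all genes, and Col5a2 had the largest step (−1.55, adjusted p = 0.00177) after 7.25 ± 2.86, 115 ± 12.1 and 38.5 ± 1.29 FPKM in the 3 groups. The comparisons with sham and with UUO share the rUUO samples.

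Among 21 other collagens, 13 had risen and none fallen (median 1.36). After rescaling without mitochondrial genes 11 rose, and 10 to 13 when single samples were left out. Col15a1, a collagen of basement membrane zones, rose from 43.1, 39.4, 113 and 44.8 to 510.01, 398, 597 and 497 FPKM (log2 change 3.17 ± 0.30 SE, adjusted p = 3.31e-06) and its UUO mean was 484 ± 183 FPKM, a difference that did not pass (0.10, adjusted p = 0.895). Col16a1, which associates with fibrils, was at 12, 15.1, 15 and 11.9 FPKM against 67, 74, 85.1 and 84 FPKM. Col7a1, the anchoring fibril collagen, was at 0.01, 0.25, 0.06 and 0.06 FPKM in sham and 7.53, 4.44, 13 and 4.37 FPKM in rUUO. The basement membrane chains Col4a3, Col4a4 and Col4a5 of the glomerulus had changes of 0.34, 0.41 and 0.43 that did not pass.

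Matrix glycoproteins showed the same one-sidedness, with 29 of 37 tested genes higher, 1 lower and a median change of 1.56. Fn1, fibronectin, rose from 29.5, 68, 104 and 27 to 522, 457, 579 and 476 FPKM (log2 change 3.35 ± 0.32 SE, adjusted p = 3.54e-06). Spp1, the secreted phosphoprotein osteopontin, was at 148, 153, 181 and 168 FPKM in sham and 1692, 1151, 1949 and 1619 FPKM in rUUO (log2 change 3.27 ± 0.18 SE, adjusted p = 6.2e-08), and Fbln2, fibulin-2, at 3.99, 14.8, 33.9 and 5.35 and 86.2, 68.4, 86.3 and 104 FPKM (log2 change 2.91 ± 0.49 SE, adjusted p = 0.000553). The 1 gene that fell was Ctgf, the connective tissue growth factor often read as a TGF-beta and YAP target, at 869.9, 607, 664 and 448 FPKM in sham and 158, 172, 144 and 179.9 FPKM in rUUO (log2 change −1.94 ± 0.23 SE, adjusted p = 2.82e-05). Its close relative Cyr61 rose (log2 change 1.55 ± 0.22 SE, adjusted p = 0.000113).

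By FPKM the most abundant of these matrix transcripts were Sparc and Mgp. Sparc, a collagen-binding protein, was at 1603, 1654, 2821 and 1447 FPKM in sham and 6339, 7059, 5665 and 5491 FPKM in rUUO (log2 change 1.75 ± 0.21 SE, adjusted p = 2.83e-05). Mgp, matrix Gla protein, an inhibitor of calcification on chromosome 6, 136872435 to 136875823, was at 1526, 1451, 2018 and 2329 FPKM in sham and 8073, 9291, 12234 and 8423 FPKM in rUUO (log2 change 2.38 ± 0.24 SE, adjusted p = 6.72e-06). Mgp in rUUO was also above its UUO mean of 3535 ± 1469 FPKM (1.49, adjusted p = 0.00408), whereas Sparc was below its UUO mean of 11497 ± 2279 FPKM (−0.89, adjusted p = 0.0284).

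Of 13 proteoglycan genes, 8 had risen and none fallen. Dcn was at 314, 466, 1011 and 467 FPKM in sham and 2374, 2643, 2163 and 2573 FPKM in rUUO (log2 change 2.24 ± 0.32 SE, adjusted p = 0.000127). Lum, the related proteoglycan lumican, was at 37.9, 37.5, 94 and 51.6 and 375, 287, 304 and 241 FPKM (log2 change 2.51 ± 0.26 SE, adjusted p = 7.74e-06). Both had UUO means close to those of rUUO, at 2386 ± 1065 and 377 ± 81.1 FPKM, with differences of 0.13 and −0.31 (adjusted p = 0.86 and 0.533) that did not pass.

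The enzymes that modify and cross-link collagen had risen in 12 of 18 cases and fallen in none. The count of rises was 9 after rescaling without mitochondrial genes and 9 to 10 when single samples were left out. Loxl2, a lysyl oxidase, was at 13.2, 16.2, 21.3 and 10.2 FPKM in sham and 91.9, 87.6, 97.4 and 99.2 FPKM in rUUO (log2 change 2.60 ± 0.21 SE, adjusted p = 7.81e-07). Lox, the founding member of that family, was at 9.09, 20.1, 47.5 and 10.7 and 86.7, 80.8, 102 and 75.8 FPKM (log2 change 2.22 ± 0.41 SE, adjusted p = 0.00115) and had come down steeply from a UUO mean of 462 ± 162 FPKM (−2.32, adjusted p = 0.00638). P4ha3, a prolyl hydroxylase subunit, had 0.12, 0, 0.92 and 0.06 FPKM in sham, a UUO mean of 40.8 ± 17.2 FPKM and 1.15, 3.32, 5.91 and 7.8 FPKM in rUUO. Bmp1, the procollagen C-proteinase, had 5.8, 12.1, 11 and 4.59 and 29.8, 33.8, 49.5 and 35.2 FPKM (log2 change 2.09 ± 0.27 SE, adjusted p = 6.15e-05).

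Proteases of the matrix and their inhibitors rose in 12 of 20 cases and fell in 3. Beside Timp1 and Mmp3, the metalloproteinase Mmp11 rose from 5.37, 6.46, 4.63 and 9.63 to 39.3, 40.4, 104 and 54 FPKM (log2 change 2.93 ± 0.33 SE, adjusted p = 1.69e-05). Adamts5, an aggrecan-cleaving protease, fell from 191, 200.03, 213 and 138 to 32.5, 21.7, 16.2 and 27.8 FPKM (log2 change −2.89 ± 0.27 SE, adjusted p = 3.31e-06), below its UUO mean of 53.3 ± 23.4 FPKM as well (−1.04, adjusted p = 0.0447). The other falls were Plau (urokinase, log2 change −1.64 ± 0.45 SE, adjusted p = 0.0192) and Adamts1 (log2 change −0.72 ± 0.23 SE, adjusted p = 0.0458). Adamts5 alone fell when rUUO replicate 1 or 4 or sham replicate 1 or 2 was left out, where Plau had adjusted p values of 0.0656, 0.0513, 0.0552 and 0.061 and Adamts1 of 0.0688, 0.11, 0.125 and 0.114. Adamts1 also did not pass without rUUO replicate 2 or 6 or sham replicate 3 (adjusted p = 0.0978, 0.077 and 0.0966).

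**Figure D2:**
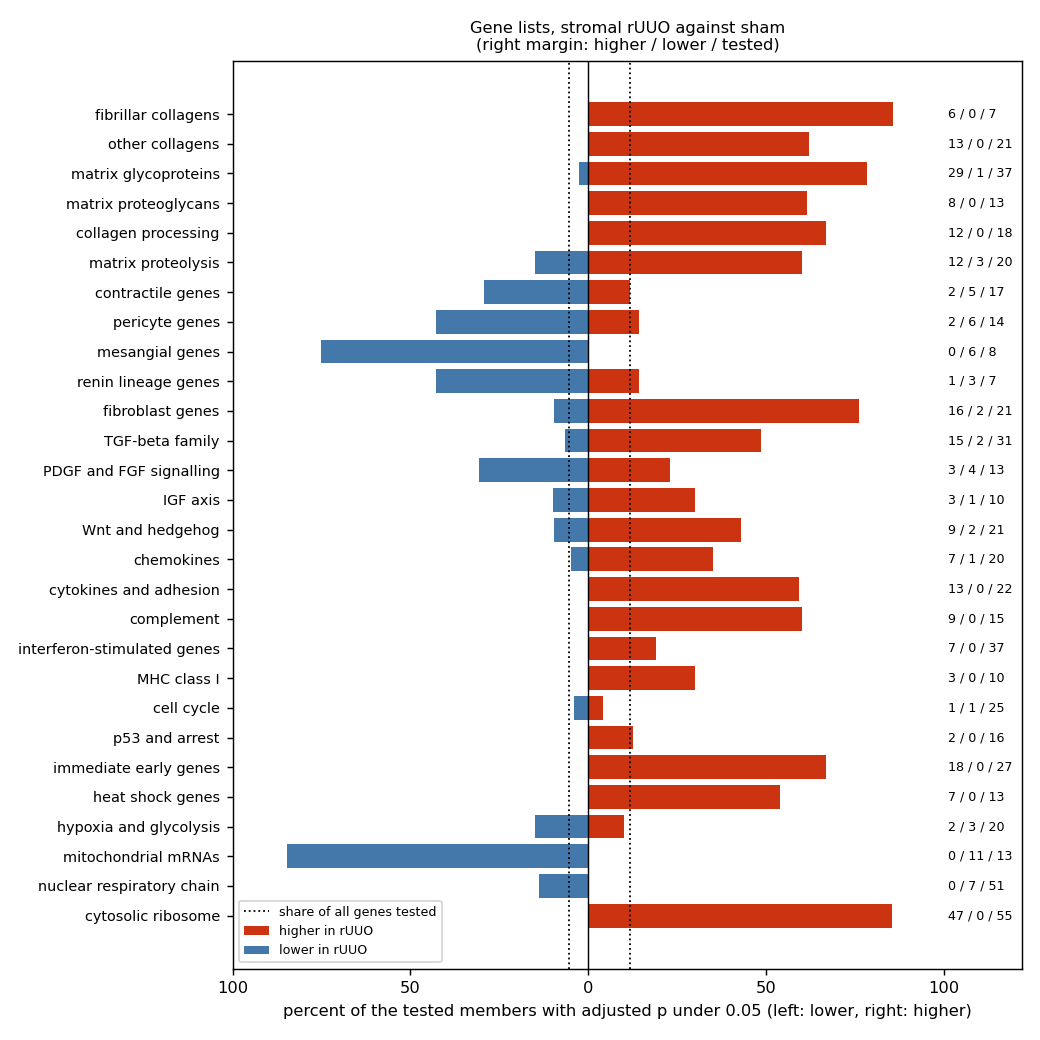
Percent of the tested members of each gene list that were higher (red, to the right) or lower (blue, to the left) in stromal rUUO than in sham samples at an adjusted p under 0.05, with counts of higher, lower and tested members at the right. Dotted lines mark the shares over all genes, 11.6% higher and 5.57% lower; matrix and fibroblast lists lie to the right, mesangial genes and mitochondrial mRNAs to the left.

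Marker genes of fibroblasts had mostly risen. Their list shares Dcn, Lum, Col1a2, Col14a1 and Mfap5 with the matrix lists above, so that its count is not independent of theirs. Of 21 tested, 16 had risen and 2 fallen (median 1.61). Fap, the fibroblast activation protein, was at 0.65, 0.76, 4.47 and 0.26 FPKM in sham and 10.03, 7.12, 13.5 and 3.92 FPKM in rUUO (log2 change 2.08 ± 0.47 SE, adjusted p = 0.00547), and Col14a1, a collagen of interstitial fibroblasts, at 24.9, 39.5, 82.5 and 32 and 215, 244, 168 and 179 FPKM (log2 change 2.28 ± 0.29 SE, adjusted p = 4.5e-05). The falls were Nt5e and Cd34, a sialomucin of interstitial and endothelial cells at 183, 168, 197 and 153 FPKM in sham and 79, 101, 41.1 and 89.97 FPKM in rUUO (log2 change −1.23 ± 0.25 SE, adjusted p = 0.00244). After rescaling without mitochondrial genes 12 rose and 2 fell.

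Pericyte and contractile lists held falls above the 5.57% of all genes and rises near the 11.6% of all genes. Of 14 pericyte genes 6 fell and 2 rose (1 without rUUO replicate 1 or 4 or sham replicate 4), the falls including Mcam, an adhesion molecule, from 90.1, 81.3, 84.5 and 57.8 to 14.1, 14.6, 7.16 and 14.2 FPKM (log2 change −2.58 ± 0.35 SE, adjusted p = 9.32e-05) and Rgs5, a regulator of G-protein signalling, from 392, 297, 126 and 257 to 131, 72.6, 74.4 and 85.5 FPKM (log2 change −1.48 ± 0.33 SE, adjusted p = 0.00548). Rgs5 was lowest among sham samples in replicate 3, at a level that overlapped rUUO. Of 17 contractile genes 5 fell and 2 rose. Leaving out single samples changed these small counts, to 2 falls without sham replicate 2, to 3 falls without sham replicate 1 or rUUO replicate 1, 2, 4 or 6, and to 1 rise without sham replicate 3 or 4 or rUUO replicate 4 or 6.

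Within the contractile list, Myl9, a regulatory myosin light chain, fell from 890.5, 673, 807 and 533 to 197, 131, 189.8 and 137 FPKM (log2 change −2.14 ± 0.23 SE, adjusted p = 1.02e-05). Desmin (Des) fell from 137, 116, 107 and 88.6 to 43, 39.1, 34.2 and 54 FPKM (log2 change −1.38 ± 0.24 SE, adjusted p = 0.000845). Tagln, the actin-binding protein transgelin, instead rose from 70.7, 65.7, 35.8 and 47.3 to 239, 187, 199 and 207 FPKM (log2 change 1.95 ± 0.23 SE, adjusted p = 2.32e-05), and its difference from the UUO mean of 132 ± 34.2 FPKM did not pass (0.68, adjusted p = 0.107). Acta2, smooth muscle actin and the usual myofibroblast marker, was at 249.9, 169.6, 56.4 and 79.8 FPKM in sham and 264, 262, 226 and 266 FPKM in rUUO, and this difference did not pass (log2 change 1.10 ± 0.39 SE, adjusted p = 0.0646) unless sham replicate 1 was left out (adjusted p = 0.0126). Myh11, smooth muscle myosin, was at 73, 46.8, 12.2 and 25.8 and 14.4, 9.69, 10.01 and 10.5 FPKM and did not pass either (log2 change −1.48 ± 0.50 SE, adjusted p = 0.053) unless sham replicate 3 was left out (adjusted p = 0.0109).

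Mesangial genes fell in 6 of 8 cases and rose in none, with a median change of −2.79 (−3.04 after rescaling without mitochondrial genes). Itga8, an integrin subunit of mesangial cells on chromosome 2, 12106632 to 12301922, was at 309.5, 324, 289.7 and 249 FPKM in sham and 11.5, 21.5, 15.3 and 18.4 FPKM in rUUO (log2 change −4.08 ± 0.39 SE, adjusted p = 3.99e-06). Agtr1a, the type 1 angiotensin receptor, was at 342, 313, 325 and 261 and 28.6, 31.7, 34.5 and 20.7 FPKM (log2 change −3.40 ± 0.32 SE, adjusted p = 3.39e-06). Together with Gata3 and Hopx these genes had UUO means of 11.1 ± 8.91, 22.9 ± 11.1, 0.993 ± 0.617 and 0.998 ± 0.89 FPKM, and none of the 4 passed the test of rUUO against UUO (adjusted p = 0.271, 0.454, 0.295 and 0.446). Every one of the 8 leave-one-out fits kept the count of 6 falls.

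In the renin lineage list 1 of 7 genes rose and 3 fell, namely Ren1, Agtr1a and Akr1b7, an aldo-keto reductase of renin cells at 35.3, 21.2, 22.9 and 29.3 FPKM in sham and 2.08, 4.76, 6.15 and 7.68 FPKM in rUUO (log2 change −2.26 ± 0.45 SE, adjusted p = 0.0023). Without sham replicate 3 the count of falls was 3 as well. The rise was that of Ace, the angiotensin-converting enzyme, which did not pass without rUUO replicate 2 or 6 or sham replicate 1 or 4 (limma, adjusted p = 0.0512, 0.0519, 0.0606 and 0.0621). Podocyte markers summed to 185 to 286 FPKM in sham and 136 to 182 FPKM in rUUO, with no overlap (exact two-sided permutation test, p = 0.0286). Glomerular endothelial Ehd3 fell too, from 107, 102, 86.6 and 70.3 to 11.6, 17.5, 8.98 and 9.91 FPKM (log2 change −2.86 ± 0.32 SE, adjusted p = 1.41e-05). The part of glomerular cells in the changes of mesangial genes was not tested.

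Among the TGF-beta family 15 of 31 genes had risen and 2 fallen. After rescaling without mitochondrial genes 13 rose, and 11 to 14 when single samples were left out. Among the ligands, Tgfb2, at 4.9, 4.57, 3.54 and 3.47 and 28, 20.3, 23.3 and 27.9 FPKM (log2 change 2.34 ± 0.32 SE, adjusted p = 9.11e-05), and Inhba, an activin subunit at 9.83, 6.16, 6.51 and 5.46 and 46, 38.4, 37.8 and 39.3 FPKM (log2 change 2.40 ± 0.35 SE, adjusted p = 0.000154), rose. The secreted antagonist Fstl3, which binds activin, rose as well, from 6.11, 5.34, 7.82 and 7.52 to 42.3, 30.6, 33.9 and 25.3 FPKM (log2 change 2.13 ± 0.28 SE, adjusted p = 5.67e-05). The change of Tgfb1 itself, 0.78, did not pass (adjusted p = 0.133, and 0.0086 in a fit on the rUUO and sham samples alone). Eng, endoglin, fell (log2 change −2.02 ± 0.26 SE, adjusted p = 6.57e-05).

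Growth factor genes split by family member. Fgf1 fell from 131, 83.5, 95.7 and 90.1 to 23.8, 12.3, 11.2 and 13.8 FPKM (log2 change −2.67 ± 0.24 SE, adjusted p = 2.46e-06), whereas Fgf2 rose from 6.3, 5.57, 8.46 and 5.71 to 23, 30.5, 24.3 and 31.7 FPKM (log2 change 1.92 ± 0.25 SE, adjusted p = 5.53e-05). The receptor Fgfr2 fell as Fgf1 did, from 63.5, 81.9, 54.8 and 52.8 to 15.9, 12.7, 11.2 and 23.2 FPKM (log2 change −1.97 ± 0.29 SE, adjusted p = 0.000161). In all, 3 of 13 genes of PDGF and FGF signalling were higher and 4 lower, beside 11.6% and 5.57% of all genes. After rescaling without mitochondrial genes 2 were higher and 5 lower. When single samples were left out 2 to 4 were higher and 3 to 4 lower.

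Members of the insulin-like growth factor binding proteins went in opposite directions. Igfbp5 fell from 1438, 1334, 1436 and 982 to 148, 94.7, 118 and 82.3 FPKM (log2 change −3.56 ± 0.30 SE, adjusted p = 1.31e-06). Igfbp2, on chromosome 1, 72824503 to 72852474, was at 3.37, 10.1, 3.94 and 12.4 FPKM in sham and 97.9, 80.5, 60.6 and 87.3 FPKM in rUUO (log2 change 3.44 ± 0.38 SE, adjusted p = 1.41e-05), with no overlap. Unlike the collagens, Igfbp2 was not raised in UUO, where its samples had 2.2, 5.7, 6.68 and 7.38 FPKM, and rUUO exceeded UUO by 3.74 (adjusted p = 0.000146). In all, 3 of 10 genes of the axis were higher and 1 lower, beside 11.6% and 5.57% of all genes. The count of rises was 2 after rescaling without mitochondrial genes and 2 to 4 when single samples were left out. Igf1, 1 of the 3, did not pass without rUUO replicate 1, 2 or 6 or sham replicate 1, 2 or 4 (limma, adjusted p = 0.0541 to 0.0795).

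Of 21 Wnt and hedgehog genes 9 rose and 2 fell. The count of rises was 6 after rescaling without mitochondrial genes and 7 to 9 when single samples were left out. The ligands Wnt2, at 0.69, 0, 0.13 and 0.35 FPKM in sham and 6.08, 6.41, 12.6 and 7.3 FPKM in rUUO (log2 change 2.79 ± 0.42 SE, adjusted p = 0.000225), and Wnt4, at 3.28, 5.62, 2.13 and 4.25 and 26.7, 11.4, 21.7 and 15.9 FPKM (log2 change 2.04 ± 0.40 SE, adjusted p = 0.00219), were among the rises. Both falls were secreted modulators of Wnt signalling that had been abundant in sham, Sfrp2 at 865, 886, 1135 and 654 against 48.5, 117, 71.3 and 42.3 FPKM (log2 change −3.73 ± 0.49 SE, adjusted p = 6.16e-05) and Dkk2 at 384, 366, 369 and 297 against 30.1, 32.9, 48.3 and 41.8 FPKM (log2 change −3.19 ± 0.29 SE, adjusted p = 2.25e-06). Gli1, a target of hedgehog signalling that marks a perivascular fibroblast-like population, rose by 1.52 (adjusted p = 0.00246).

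Cytokines, adhesion molecules and complement also stayed high. Of 22 cytokine and adhesion genes 13 had risen and none fallen (median 1.30). The count of rises was 13 after rescaling without mitochondrial genes and 9 to 11 when single samples were left out. Tnfsf13b, the B-cell survival factor BAFF, was at 4.03, 4.5, 1.77 and 1.25 FPKM in sham and 24.7, 24.3, 22.2 and 25.4 FPKM in rUUO (log2 change 2.79 ± 0.32 SE, adjusted p = 1.79e-05), and Icam1, a ligand for leukocyte integrins, at 9.9, 12, 8.13 and 7.39 and 35.7, 32.8, 46.8 and 34 FPKM (log2 change 1.90 ± 0.26 SE, adjusted p = 9.11e-05). Of 20 chemokines 7 rose and 1 fell. Ccl2, which attracts monocytes, rose from 0.75, 3.03, 3.85 and 4.41 to 14.3, 24.7, 29.9 and 39.2 FPKM (log2 change 2.84 ± 0.36 SE, adjusted p = 5.19e-05) and Ccl19, a ligand of CCR7, from 5.78, 22.8, 13.1 and 13.9 to 134, 53.6, 53.8 and 65.6 FPKM (log2 change 2.41 ± 0.38 SE, adjusted p = 0.000318). The B-cell attractant Cxcl13 fell from 37.4, 39.6, 31.6 and 33.7 to 2.79, 3.5, 1.52 and 5.66 FPKM (log2 change −3.15 ± 0.77 SE, adjusted p = 0.00948).

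Complement genes rose in 9 of 15 cases and fell in none (median 1.63), with 1 fall when rUUO replicate 4 was left out. C4b was at 3.33, 9.73, 23.2 and 2.77 FPKM in sham and 65.1, 55.1, 40.2 and 43.3 FPKM in rUUO (log2 change 2.66 ± 0.60 SE, adjusted p = 0.00534) and C2 at 6.59, 16.4, 28.5 and 7.34 and 50.4, 83.8, 56.4 and 46.5 FPKM (log2 change 2.13 ± 0.40 SE, adjusted p = 0.00137). C3, the central component, was high but uneven in sham, at 96.3, 281, 580.4 and 66 FPKM against 698, 687, 385 and 1011 FPKM in rUUO, and did not pass (log2 change 1.86 ± 0.72 SE, adjusted p = 0.0949) unless sham replicate 3 was left out (adjusted p = 0.034).

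Of 37 interferon-stimulated genes tested 7 had risen, beside 11.6% of all genes, and none had fallen. The count of rises was 3 after rescaling without mitochondrial genes, and 4 without rUUO replicate 2 or 6 or without sham replicate 1. Ifi27l2a (24.6, 27.5, 54.6 and 21.9 and 129, 91.6, 105 and 91.2 FPKM, log2 change 1.75 ± 0.29 SE, adjusted p = 0.000473) was among the 7, whereas Isg15 and Ifit1 had changes of −0.06 and −0.51 and did not pass. B2m, the light chain of MHC class I, rose from 1308, 1061, 1181 and 994 to 2172, 2450.1, 2529 and 2621 FPKM (log2 change 1.11 ± 0.19 SE, adjusted p = 0.000562) and stood above its UUO mean of 1359 ± 385 FPKM (0.89, adjusted p = 0.0158). Of 10 MHC class I genes 3 were higher against sham, 1 after rescaling, which was B2m, and 1 also without rUUO replicate 2 or 6 or without sham replicate 2, 3 or 4. H2 genes share much of their sequence, so that their FPKM values are uncertain.

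Immediate early genes, which are induced within minutes by growth factors and by tissue handling, had risen in 18 of 27 cases and fallen in none (median 1.38, and 17 after rescaling). The transcription factor Egr2 was at 11.2, 11, 13.1 and 9.45 FPKM in sham and 133, 114, 133 and 104 FPKM in rUUO (log2 change 3.32 ± 0.20 SE, adjusted p = 7.79e-08), Egr1 at 86.7, 92.9, 68.7 and 107 and 384, 640.3, 389 and 330.1 FPKM (log2 change 2.25 ± 0.23 SE, adjusted p = 7.83e-06), and Socs3, a brake on cytokine signalling, at 2.89, 7.97, 9.03 and 2.62 and 31.1, 25.4, 32.4 and 23.9 FPKM (log2 change 2.28 ± 0.33 SE, adjusted p = 0.000175). Heat shock genes had risen in 7 of 13 cases, in 4 after rescaling and in 4 without rUUO replicate 2, among them Hspa1a from 13.4, 10.6, 7.56 and 14.1 to 55.1, 47.4, 27.4 and 43.1 FPKM (log2 change 1.82 ± 0.35 SE, adjusted p = 0.00164); Hspa1a and Hspa1b are near-identical copies and their values are uncertain. The part of cell dissociation in these changes was not tested.

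Counts of proliferation and arrest genes stand beside the 11.6% of all genes that were higher and the 5.57% that were lower. Of 25 cell cycle genes Mcm6 alone rose (4.89, 4.69, 5.64 and 3.28 and 13.9, 16.1, 12.1 and 8.87 FPKM, log2 change 1.28 ± 0.25 SE, adjusted p = 0.00225) and Ccnd1, cyclin D1, alone fell (53.3, 46.3, 53 and 40.04 and 28.6, 26.3, 21.2 and 27.7 FPKM, log2 change −0.87 ± 0.19 SE, adjusted p = 0.0052), while the median change was 0.77. A fit on the rUUO and sham samples alone gave 7 rises, and leaving out rUUO replicate 6 or sham replicate 3 gave 2. Of 16 genes of p53 response and arrest 2 rose, 1 of them being Phlda3 (16.7, 6.88, 2.71 and 8.48 and 19.6, 35.9, 27.3 and 36 FPKM, log2 change 1.84 ± 0.37 SE, adjusted p = 0.0023), and the other, Cdkn2c, did not pass without rUUO replicate 1, 4 or 6 or without sham replicate 1 or 4 (limma, adjusted p = 0.0563, 0.0696, 0.0511, 0.0519 and 0.0548). Cdkn1a, p21, was at 76.3, 41.5, 42.6 and 46.2 and 92.2, 90.9, 93.4 and 32.6 FPKM and did not pass (log2 change 0.50 ± 0.35 SE, adjusted p = 0.381).

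Transcripts of the mitochondrial genome were lower in rUUO. Of 13 mRNAs 11 fell and none rose, with a median change of −1.23 against 0.15 over all genes, and mt-Co2, a subunit of cytochrome c oxidase, was at 2758, 2779, 2999 and 4353 FPKM in sham and 1312, 1292, 1288 and 1440.4 FPKM in rUUO (log2 change −1.25 ± 0.15 SE, adjusted p = 3.81e-05). UUO samples held a mitochondrial share of 21.5 to 26.4%, which overlaps that of rUUO. Nuclear genes of the respiratory chain fell in 7 of 51 cases, beside 5.57% of all genes, and rose in none (median −0.36). That count was 16 after rescaling without mitochondrial genes, beside 7.06% of all genes. When single samples were left out it was 2 to 6, beside 585 to 697 of all 14033 genes. It was 2 without sham replicate 1, 3 without rUUO replicate 2, and 4 without rUUO replicate 6, sham replicate 2 or sham replicate 3. The smallest of these counts are near the share of all genes.

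Ribosomal protein genes moved the other way, 47 of 55 being higher and none lower, but with small changes (median 0.77). Rpl10 was at 303, 271, 269 and 269 FPKM in sham and 527, 653, 547 and 579 FPKM in rUUO (log2 change 1.05 ± 0.13 SE, adjusted p = 3.81e-05). The count was 30 after rescaling without mitochondrial genes, when the median was 0.54 against −0.05 over all genes, and 17 after quantile normalization. Ribosomal protein genes have many processed pseudogenes, with which reads may be shared. In the glycolysis and hypoxia list 2 of 20 genes rose and 3 fell, beside 11.6% and 5.57% of all genes. After rescaling 1 rose and 6 fell, beside 7.47% and 7.06% of all genes. Without sham replicate 3 or 4 or rUUO replicate 4 or 6 the count of rises was 1.

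Markers of other cells were checked beside these changes. Tubule transcripts were lower in rUUO stromal samples. The 13 distal tubule markers summed to 508 to 744 FPKM in sham and 70 to 117 FPKM in rUUO, and 12 of them fell. Umod, uromodulin of the thick ascending limb, was at 189, 244, 225 and 236 FPKM in sham and 51, 42.3, 78.6 and 65.7 FPKM in rUUO (log2 change −1.93 ± 0.23 SE, adjusted p = 2.45e-05), and Egf at 59.6, 86.9, 61.2 and 59 and 0.69, 3.98, 2.3 and 2.58 FPKM. S100g, which is not among the 13 and not in their sum, was at 162, 396, 928 and 352 and 14.6, 11, 10.7 and 27.4 FPKM. The 16 proximal tubule markers summed to 151 to 234 FPKM in sham and 55.2 to 124 FPKM in rUUO, and 6 of 13 tested fell. Both sums had no overlap between groups (exact two-sided permutation test, p = 0.0286 each). Endothelial sham samples held Umod at a similar mean of 265 FPKM, which was 107 FPKM in rUUO.

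Endothelial markers summed to 232 to 294 FPKM in sham and 107 to 180 FPKM in rUUO, yet Pecam1 (CD31), their defining member, was at 6.93, 8.49, 4.04 and 9.33 and 3.09, 11.4, 5.32 and 5.07 FPKM and did not pass (log2 change −0.25 ± 0.36 SE, adjusted p = 0.712), against a mean of 377 FPKM in sham endothelial cells. Of 13 tested 4 fell, among them Esam, from 21.2, 28.7, 26.9 and 20.9 to 2.4, 5.68, 1.61 and 2.69 FPKM (log2 change −2.71 ± 0.32 SE, adjusted p = 2.86e-05), and Plvap, from 41.2, 32.8, 31.8 and 33.3 to 7.11, 6.51, 4.33 and 3.91 FPKM (log2 change −2.49 ± 0.35 SE, adjusted p = 0.000112), and 1 rose. Ehd3, described above, was another of the 4. The other 8 did not pass, and the median change of the 13 was −0.25, so that the lower sum does not stand for all members. Macrophage markers summed to 175 to 189 FPKM in sham and 110 to 186 FPKM in rUUO (exact two-sided permutation test, p = 0.114), but after rescaling without mitochondrial genes the sums did not overlap, at 435 to 466 and 239 to 391 (p = 0.0286 by the same exact test). Of 15 tested, Mrc1 and Csf1r fell, none rose and 13 did not pass. The median change of the 15 was 0.22, and 0.02 after rescaling. Mrc1, whose large fall is given above, is part of these sums.

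Neutrophil and T-cell markers were low but higher in rUUO. The neutrophil markers summed to 0.320 to 1.13 FPKM in sham and 4.67 to 43.3 FPKM in rUUO, and those of T and NK cells to 0.930 to 3.10 and 5.99 to 11 FPKM (exact two-sided permutation test, p = 0.0286 each). S100a9, a neutrophil calcium-binding protein, was at 0.42, 0, 0 and 0 FPKM in sham and 0.67, 7.02, 23.4 and 0.95 FPKM in rUUO, the highest value being in rUUO replicate 4. It did not pass (log2 change 2.20 ± 0.81 SE, adjusted p = 0.0794) but did without rUUO replicate 1 (adjusted p = 0.0468), and none of the 3 neutrophil markers tested passed with all samples. Red cell markers summed to 11.9 to 277 FPKM in sham and 3.57 to 13.5 FPKM in rUUO, which overlapped (exact two-sided permutation test, p = 0.0571), and after rescaling to 28.6 to 677 and 7.497 to 28.0, which did not (p = 0.0286 by the same exact test). Of 5 red cell genes 3, the globin genes Hbb-bs, Hbb-bt and Hba-a1, fell, and 0 to 3 fell when single samples were left out, with none without sham replicate 1 and 1 without sham replicate 2 or rUUO replicate 1 or 2. Sums of B-cell, Schwann cell, MHC class II and tubular injury markers overlapped between the groups on both scales, and none of 7 MHC class II genes passed. The part of other cells in the stromal changes was not tested.

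**Figure D3:**
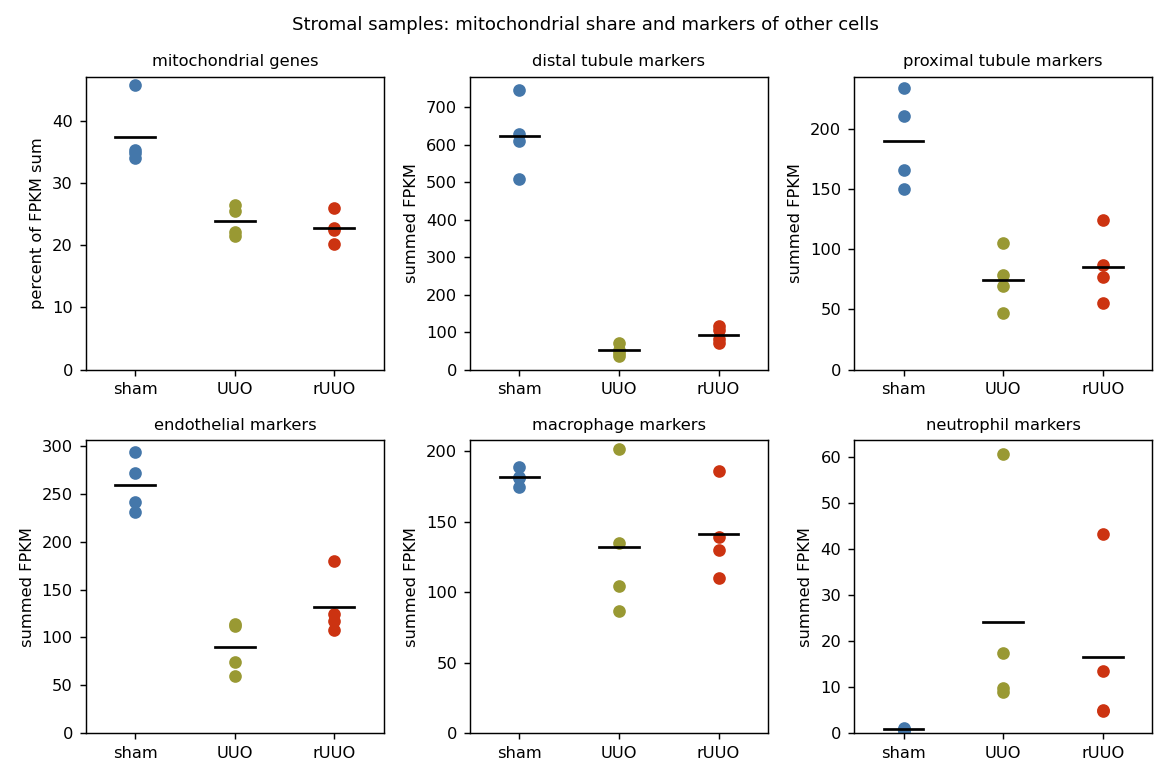
Share of the FPKM sum held by mitochondrial genes (percent) and summed FPKM of 5 marker lists of other cells in each stromal sample (points, 4 a group) of sham, UUO and rUUO, with group means as bars. Sham samples have the highest mitochondrial share, at 34.0% or more, and the highest tubule and endothelial sums, while macrophage sums in deposited FPKM overlap between sham and rUUO.

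UUO samples show the level of these genes under standing obstruction. In the fit over the 12 stromal samples 3704 genes (26.4%) differed between UUO and sham, and 585 (4.17%) between rUUO and UUO, of which 414 (2.95%) were higher and 171 (1.22%) lower in rUUO. These comparisons share their samples with that of rUUO and sham, so their counts are given side by side only. Of 29 genes with the largest changes from sham, 2 differed between rUUO and UUO. Enpp1 was higher in rUUO than its UUO mean of 60.5 ± 24.1 FPKM (1.21, adjusted p = 0.0124) and Thy1 was lower than its UUO mean of 446 ± 158 FPKM (−1.47, adjusted p = 0.0485).

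A further set stood higher in rUUO than in both UUO and sham. Beside Igfbp2, Mgp and B2m it held Spp1, with a UUO mean of 909 ± 176 FPKM (0.82, adjusted p = 0.0231), and Tnfsf13b, with a UUO mean of 8.76 ± 2.66 FPKM (1.41, adjusted p = 0.0234). Cdh6, a cadherin of developing and injured proximal tubule, was at 7.57, 6.16, 1.53 and 3.31 FPKM in sham, 0.92, 1.48, 3.38 and 2.32 FPKM in UUO and 17.6, 16.3, 15.5 and 19.5 FPKM in rUUO, above sham (log2 change 1.83 ± 0.38 SE, adjusted p = 0.00283) and above UUO (2.65, adjusted p = 0.00178). Cdh6 does not stand for the tubular injury markers. Of 11 tested it was the 1 that rose against sham, while 2, Krt7 and Wfdc2, fell. When single samples were left out, 1 to 2 rose and 1 to 2 fell.

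Changes of the stromal cells were set against those of CD31+ endothelial cells, sorted from kidneys of the same surgery groups (4 rUUO and 4 sham). By the series' design both populations came from the same mice, and the fit did not use that pairing. The 29 genes with the largest changes were chosen on the stromal change, which is a term of the difference between populations, so that the difference is given as a description. Gja5 changed by −0.44 in endothelial cells, against −6.16 in stromal cells. Timp1 changed by 0.62 there, against 5.07. S100g and Egf fell in endothelial samples too, with log2 changes of −2.87 and −2.99 (limma, adjusted p = 0.00565 and 0.000195).

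**Figure D4:**
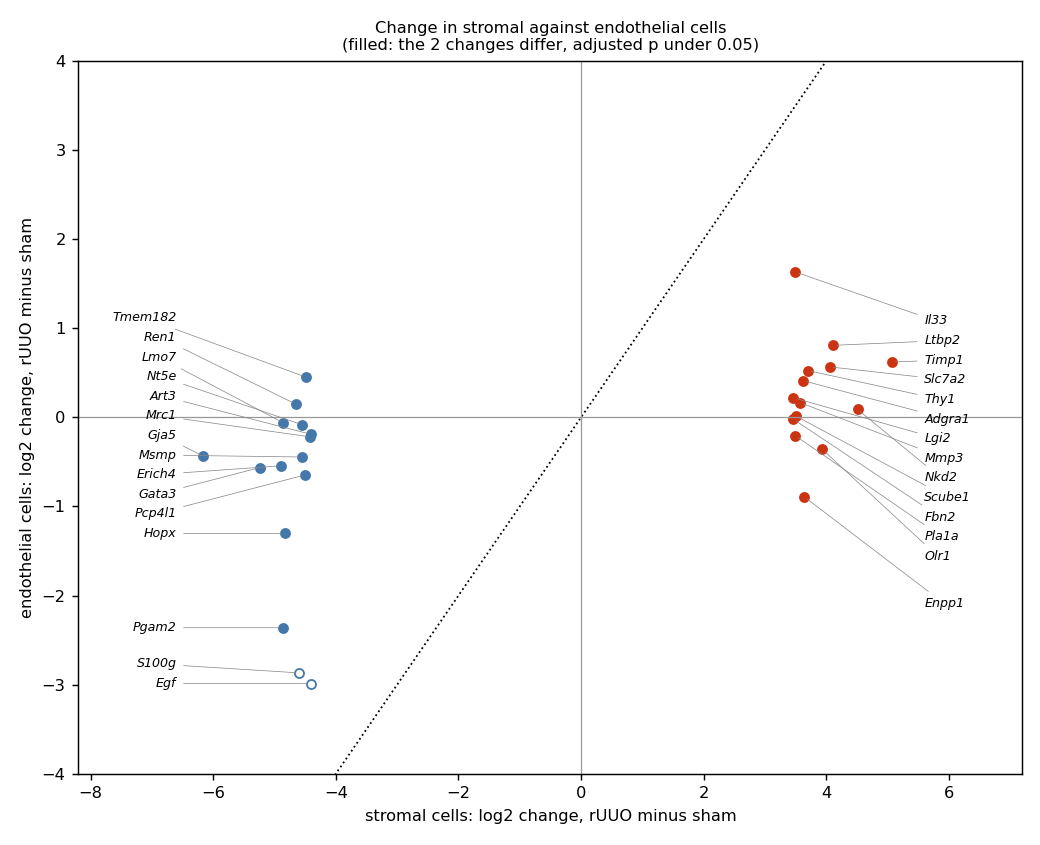
Log2 change in rUUO minus sham for 14 of the 15 largest stromal rises (red) and the 15 largest falls (blue), in stromal cells (x axis) against endothelial cells (y axis), 4 samples a group. Filled points mark the 27 genes whose interaction term passed, which the choice of genes favours, beside 7.53% of all genes tested. The open points are S100g and Egf, nearest the dotted line of equal change.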

How the data were processed

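Libraries of FACS-sorted kidney cells were made with an amplifying kit (Ovation RNA-Seq System V2) for Illumina HiSeq sequencing. In the deposited table the authors give FPKM values, 53465 genes by 46 value columns. The submitters' processing notes name FastQC, Bowtie2, RSEM, DESeq2 and mm10, with neither versions nor roles. Values of 44 columns were used, and 2 that bear the same name were not. Groups came from the labels.

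The test was limma 3.58.1 in R 4.3.3 on log2(FPKM + 1), with a trend in the variance prior, for 14033 genes whose mean over the 12 stromal samples reached 1 FPKM, adjusted by Benjamini-Hochberg and called under 0.05. Read counts are not given, so that depth is known only in relative terms and no count model was run. Sums of markers were compared by two-sided exact permutation tests (scipy 1.17.1). The script was tested on simulated data. Named genes were the 15 largest rises and falls that passed with groups apart and a higher mean of at least 5 FPKM, predicted genes left out, up to 4 called members of each list, and cell markers. A few genes that the rule selects are not reported here. The samples, members and gene lists were chosen with earlier results of these data known. Alternatives covered the pseudocount, filter, scale, samples fitted, variance trend, fold threshold, replicate block and each sample left out.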

Additional observations from a re-analysis of the deposited data

Results flagged for a closer look

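In groups of 4 samples, a sample was marked where its gap to the nearest other sample on the log2(FPKM + 1) scale, divided by the range of the group, was above Dixon's 95% critical value for 4 samples. Of 350 groups tested over the named genes, 23 had such a sample, and chance alone marks about 1 in 20. No explanation was tested for them. Sham replicate 1 stood apart for Slc7a2 (5.27 FPKM, gap 0.844 of the range), Hopx (83.7 FPKM, gap 0.926 of the range), Rpl10 (303 FPKM, gap 0.938 of the range) and S100a9 (0.42 FPKM, gap 1 of the range). Sham replicate 2 stood apart for Egf (86.9 FPKM, gap 0.906 of the range). Sham replicate 3 stood apart for Col15a1 (113 FPKM, gap 0.879 of the range), Csf1r (6.27 FPKM, gap 0.859 of the range), Igkc (5.29 FPKM, gap 0.898 of the range) and Gli1 (0.48 FPKM, gap 0.949 of the range). Sham replicate 4 stood apart for Gja5 (266 FPKM, gap 0.859 of the range), Myc (1.73 FPKM, gap 0.882 of the range), Slc2a1 (25.2 FPKM, gap 0.846 of the range) and mt-Nd2 (1098 FPKM, gap 0.912 of the range). In rUUO, replicate 1 stood apart for Tmem182 (3 FPKM, gap 0.8294 of the range), mt-Nd3 (107 FPKM, gap 0.931 of the range) and Mbp (7.39 FPKM, gap 0.834 of the range). Replicate 4 of rUUO stood apart for Mcam (7.16 FPKM, gap 0.951 of the range), Erg (6.25 FPKM, gap 0.88 of the range), Col4a4 (7.92 FPKM, gap 0.877 of the range) and Acta2 (226 FPKM, gap 0.919 of the range). Replicate 6 of rUUO stood apart for mt-Co2 (1440.4 FPKM, gap 0.838 of the range), Slc34a1 (2.45 FPKM, gap 0.932 of the range) and Cdkn1a (32.6 FPKM, gap 0.974 of the range).

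The change between rUUO and sham differed between stromal and endothelial cells for 27 of 29 genes with the largest stromal changes (limma interaction term, adjusted p under 0.05). Over all 14196 genes tested for that term, 7.53% passed. The fit took the samples of the 2 populations as independent, although by the series' design they came from the same mice. The 29 genes were chosen on the stromal change, a term of that difference, so that their count is fixed in large part by the choice and the values are a description. Among the rises the stromal change minus the endothelial change, in log2 units, was 4.45 for Timp1, 4.42 for Nkd2, 3.30 for Ltbp2, 3.49 for Slc7a2, 4.29 for Olr1, 3.17 for Thy1, 4.53 for Enpp1, 3.22 for Adgra1, 3.41 for Mmp3, 3.48 for Scube1, 3.70 for Pla1a, 1.86 for Il33, 3.48 for Fbn2 and 3.24 for Lgi2. Among the falls it was −5.72 for Gja5, −4.67 for Gata3, −4.35 for Erich4, −2.51 for Pgam2, −4.79 for Lmo7, −3.53 for Hopx, −4.79 for Ren1, −4.47 for Nt5e, −4.11 for Msmp, −3.85 for Pcp4l1, −4.94 for Tmem182, −4.20 for Mrc1 and −4.22 for Art3. The call for Msmp was lost with a pseudocount of 0.1 (adjusted p = 0.0697). What sets the populations apart was not tested.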

How the results depend on the processing

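As deposited, 2407 genes differed between rUUO and sham (1626 higher, 781 lower). After rescaling without mitochondrial genes 1047 were higher and 990 lower. Under quantile normalization 1209 were higher and 1119 lower, and after rescaling to TPM 1790 and 659. Other settings gave 2331 genes with a pseudocount of 0.1, 2108 of 27765 without a filter on low values, 2172 without an intensity trend, 2352 with a fold change above 1.5, 2757 from a fit of the 8 samples alone and 3033 from a fit of all 4 populations. Leaving out single samples gave 1927 to 2105 genes, 1238 to 1413 higher and 585 to 697 lower. The ratio of the summed MHC class II genes in rUUO over sham was 1.13 as deposited and 0.961 after rescaling without mitochondrial genes, and that of the tubular injury markers 1.06 and 0.906. Of 155 named genes that passed, 124 passed in the same direction under every alternative and 31 lost the call under at least 1.

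Sham and rUUO share the replicate numbers 1, 2 and 4, but nothing in the labels says that a number marks the same batch, and deviations of same-numbered samples from their group means had correlations over genes of −0.0388, 0.0144 and 0.00997. With the replicate number as a block 1574 genes were called, 1055 higher and 519 lower, of which 1503 were among the 2407.

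Read totals are unknown. The relative depth estimated from the steps of the values was 0.572 to 0.788 in rUUO replicates 1, 2 and 4, below the 0.949 to 1.15 of the sham samples, and 1.02 in rUUO replicate 6, and its part in the results was not tested. Obstruction, reversal surgery and the time since surgery cannot be told apart in this comparison.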

Other observations

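Genes of MHC class I, which present peptides to cytotoxic T cells, were set against standing obstruction as well. In the deposited values 7 of 10 were higher in rUUO than in UUO and none was lower, beside 2.95% of all genes tested that were higher, and 4 of the 10 were lower in UUO than in sham. H2-Q7 was at 40.5, 25.1, 18.8 and 16.7 FPKM in sham, 11.2, 9.94, 6.6 and 13.8 FPKM in UUO and 38.1, 54.2, 37.5 and 55.6 FPKM in rUUO. The UUO samples lay below the other groups without overlap (rUUO against UUO, log2 change 2.07, limma adjusted p = 0.00158). H2-D1 was at 302, 233, 206 and 202 FPKM in sham, 137, 164, 140.3 and 347 FPKM in UUO and 357, 384, 404 and 439 FPKM in rUUO (rUUO against UUO, log2 change 1.12, limma adjusted p = 0.0214), UUO replicate 4 being far above the other UUO samples. Against sham neither passed after rescaling without mitochondrial genes (limma adjusted p = 0.123 and 0.174), and the comparison with UUO was not rescaled. These contrasts share samples, and reads of near-identical H2 genes may be split between copies.

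Of 25 cell cycle genes 13 were higher and 1 lower in UUO than in sham, where 13.4% of all genes were higher and 13.0% lower. In rUUO against UUO 1 was higher and 2 were lower. Ccnd1, cyclin D1, was at 9.24, 13.6, 10.9 and 10.2 FPKM in UUO, below every rUUO sample (rUUO against UUO, log2 change 1.18, limma adjusted p = 0.00421).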
